A study of Oryza sativa with 36 samples.

Results

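The genes described here encode plant immune receptors, mostly of the class that carries an NB-ARC domain (also written NBS) followed by leucine-rich repeats. They were chosen by their deposited description, which had to contain NB-ARC, NBS-LRR or disease resistance protein. Of 34623 genes listed, 301 carried such a description, and 151 of these reached at least 1 FPKM in at least 3 of the 36 libraries. FPKM is the number of sequenced fragments scaled by transcript length and by library size. The other 150 did not pass this filter, and 20 of them were listed at 0 in all 36 libraries. By their descriptions, 133 of the 151 were NB-ARC or NBS proteins and 10 were disease resistance proteins with no class named. The remaining 8 bore names of the Ve and Cf type (verticillium wilt, Cf2/Cf5), which in tomato are receptor-like proteins of the cell surface with leucine-rich repeats and no NB-ARC domain.

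NB-ARC receptors sit inside the cell. The NB-ARC domain is a nucleotide-binding switch that is held off with ADP and turned on with ATP, and the leucine-rich repeats help to recognise pathogen effectors or the host proteins that effectors alter. An activated receptor starts a strong local defence that often ends in death of the cell. Rice has a large family of such genes, many in clusters of neighbouring copies, and blast and bacterial blight resistance in rice breeding rests largely on them. Names such as RPM1 and RGA3 in the descriptions come from similarity to receptors of other plants, RPM1 from Arabidopsis, and do not show what a rice gene recognises.

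The super-hybrid rice WFYT025 was sequenced beside both parents, WFB and CHT025, from leaf RNA. Leaves of each variety were taken on day 1 and on day 10 after flowering, in a crop of early rice and in a crop of middle rice, called early and middle season here. This gives 12 groups, each 1 variety on 1 day in 1 season, with 3 libraries per group, and no pathogen or other treatment is named in the labels. Whether the 3 libraries of a group are separate plants is not in the labels, and all p-values below therefore reflect library-to-library spread that may be technical. Season stands for everything that differed between both crops, and a batch that went with it cannot be told apart from it.

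Summed over genes, a library held 532276 to 567391 FPKM, and 21656 to 23811 genes were above 0. No read counts were used, and values have 2 decimals, so the depth is unknown. Leaf markers were abundant, with 18597 to 67780 FPKM summed over 17 chlorophyll a/b-binding protein genes. The 38 pollen and anther genes summed to 0.23 to 8.43 FPKM. The 43 glutelin and prolamin genes of the grain summed to 3.11 to 647 FPKM. The part of this grain RNA in the results below was not tested. Whole leaves were measured, so fewer cells that make a transcript and less of it per cell cannot be told apart.

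The 3 libraries of WFB on day 1 of the early season stood apart from the other WFB libraries in which genes were listed at all. In them, 140 genes had a mean of at least 1 FPKM although they were under 0.1 FPKM in each of the other 3 WFB groups, against 1 to 41 such genes for the other 11 groups. Of these genes, 65 were under 0.1 FPKM in all 11 other groups of the series, against 0 to 2 in the others. Conversely, 26 genes were under 0.1 FPKM there and at 1 FPKM or more in the other 3 WFB groups. The same count for the other 11 groups, each within its variety, was 0 to 19, with 19 in WFYT025 on day 1 of the early season. Whether these libraries hold only RNA of WFB was not tested. Counts and values that include these libraries are given without them too where that ends a call, turns a direction or moves the value by over 1.5 times. Comparisons of day 10 with day 1 in WFB of the early season, and all values for day 1 of the early season alone, have no such counterpart. None was computed for the genes listed as partners of the receptors, which are described near the end.

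Most of the 151 receptor genes were weakly transcribed in the leaf. Their mean over the 36 libraries had a median of 1.61 FPKM and ran from 0.108 to 40.8 FPKM, while the median over the 18585 genes that passed the same filter was 6.91 FPKM. Only 9 had a mean of 10 FPKM or more, and 48 had a mean under 1 FPKM. The 151 genes together made up 353 to 687 FPKM per library. Of the 12 groups, the middle season hybrid had both the lowest mean sum, 374 ± 18.7 FPKM on day 1 (SD, n = 3), and the highest, 672 ± 12.8 FPKM on day 10. By the chromosome number in their locus names, 45 lay on chromosome 11 and 22 on chromosome 12. Both chromosomes together held 44.4% of the receptor genes and 10.6% of the 18585 tested genes. A neighbour in the list within 100 locus numbers was found for 75 of the 151. How alike these neighbours are in sequence was not analysed here, and reads of near-identical copies may have been divided between them, so values of single copies in a cluster are uncertain.

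The highest mean, 40.8 FPKM, belonged to LOC_Os11g12350, annotated as a disease resistance protein. It was found in every library, with 16.1, 40.8 and 53.5 FPKM as the lowest, median and highest of 12 WFB libraries, 28.2, 44.7 and 58.3 FPKM in CHT025, and 28.2, 44.1 and 55.6 FPKM in WFYT025. The 3 varieties overlapped throughout, and the WFB libraries of day 1 of the early season were the lowest of the 36. The averaged parental difference on the log2(FPKM + 1) scale (CHT025 minus WFB) turned from 0.28 ± 0.04 with them to -0.17 ± 0.05 without them (SE, adjusted p = 1.24e-06 and 0.00328 by limma, a test described below). The other genes among the 10 with the highest means were LOC_Os06g17970, LOC_Os11g12050, LOC_Os12g39620, LOC_Os11g41170, LOC_Os07g02570, LOC_Os05g34230, LOC_Os04g43440, LOC_Os11g38000 and LOC_Os11g10760. LOC_Os11g12050 was listed at 0 in 1 CHT025 library of day 1 of the middle season and at 20.1 and 18.3 FPKM in the other 2. No other receptor gene had a single 0 beside 2 libraries of its group at 1 FPKM or more, and no fold change is given for it.

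The parents differed in which receptors they transcribed. No library of WFB reached 1 FPKM for 20 of the 151 genes, no library of CHT025 for 28, and no library of WFYT025 for 29. The 28 and the 29 both include 8 genes that reached 1 FPKM only in the WFB libraries that stood apart. These counts were not made over all tested genes, so they are descriptions. For 10 genes, all 12 libraries of one parent were at 1 FPKM or more and none of the other parent was, which is 6.62% of the 151 against 1.51% of all tested genes. A gene was called near 0 in a parent where its mean over the 12 libraries of that parent was under 0.1 FPKM and the mean of the other parent was at least 1 FPKM. Over all 12 libraries per parent, 5 receptor genes were near 0 in WFB and 9 in CHT025. Together this is 9.27% of the 151, against 0.759% of all tested genes near 0 in WFB and 1.23% near 0 in CHT025. The parents' values chose these genes, so their parental difference is a description with no test. Any gene that reached 1 FPKM in a single group also had to differ between groups in order to be counted among the 151. These counts thus describe the genes that passed, not the receptor family.

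The count depended on the WFB libraries that stood apart. For 3 of the 9 genes near 0 in CHT025 (LOC_Os11g11550, LOC_Os11g11580 and LOC_Os12g12130) the WFB mean came only from day 1 of the early season. Without that group, 11 genes were near 0 in WFB and 7 in CHT025, which is 11.9% of the 151, against 1.3% and 1.06% of all tested genes. This change of libraries was chosen after seeing the data. The 18 genes of this second count are described next, over the 9 libraries of each variety from the other 3 combinations of day and season. They are shown by library in the map of log2 levels.

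**Figure D1:**
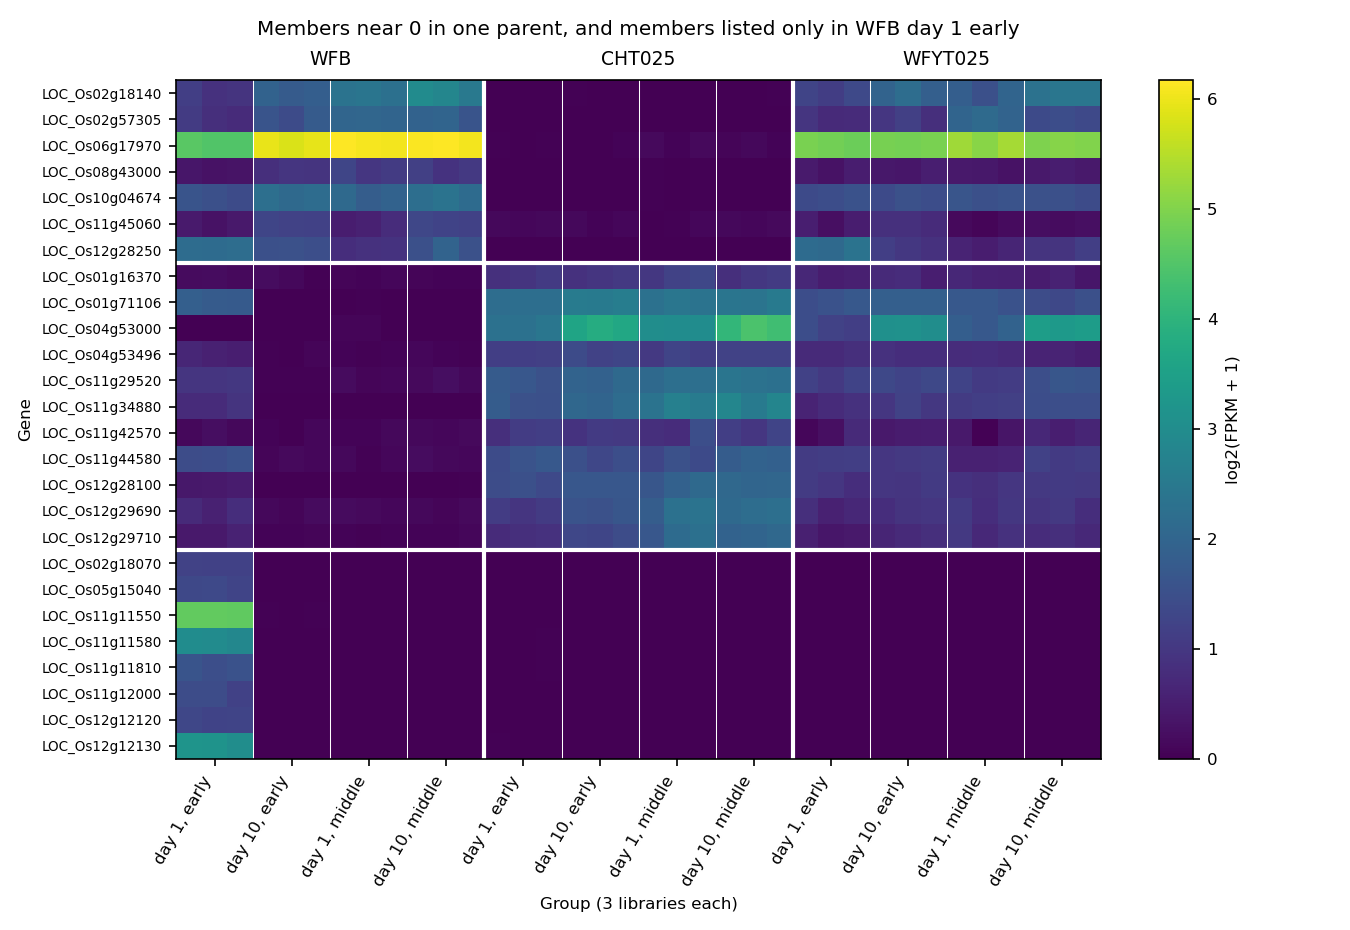
Levels of single receptor genes in the 36 libraries, as log2(FPKM + 1) by colour, with genes in rows and libraries in columns, grouped by variety, day and season. The upper block holds the 7 genes near 0 in CHT025, the middle block the 11 genes near 0 in WFB, and the lower block 8 genes listed above 1 FPKM only in the WFB libraries of day 1 of the early season.

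The test used was limma's moderated two-sided test on log2(FPKM + 1), fitted to 12 group means over all libraries used and adjusted by the Benjamini-Hochberg method over all 18585 genes. Genes with an adjusted p under 0.05 are said to be called, and log2 differences on this scale understate the change of genes near 0. The residual SD had a median of 0.106 over genes (log2 units), so small differences were called.

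LOC_Os06g17970, an NBS-LRR gene, was the most abundant of those near 0 in CHT025. WFB held 61.4, 55.2 and 60.1 FPKM on day 10 of the early season, 71.2, 67.4 and 65.5 on day 1 of the middle season, and 69.0, 71.0 and 65.9 on day 10 of the middle season. CHT025 held 0 to 0.12 FPKM in those 9 libraries. The WFYT025 libraries held 29.2, 28.7 and 29.5 FPKM, then 38.3, 32.5 and 39.9, then 30.8, 32.3 and 31.3 in the same order. Every hybrid library lay between the parents, with no overlap with either. The hybrid mean was 49.8% of the WFB mean, a log2 difference of -0.99 ± 0.03 (SE) on the log2(FPKM + 1) scale. On day 1 of the early season WFB held only 23.2, 21.7 and 21.4 FPKM, below the hybrid at 29.7, 28.3 and 26.6 FPKM.

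LOC_Os02g18140, an NBS type gene, was listed at 0 in 7 of the 9 CHT025 libraries and at 0.02 FPKM at most. The lowest, median and highest WFB library had 2.39, 4.11 and 6.87 FPKM, and the lowest, median and highest hybrid library 1.86, 2.98 and 4.37 FPKM. Hybrid and WFB overlapped. The hybrid mean was 77.6% of the WFB mean, the highest share of the 18 genes, and ran from 60.7% on day 1 of the middle season to 117% on day 10 of the early season. LOC_Os02g57305, a disease resistance protein gene, was listed at 0 in all 9 CHT025 libraries, with 1.64, 2.81 and 3.10 FPKM in WFB and 0.78, 1.61 and 3.41 FPKM in WFYT025. Its hybrid share was 74.8%, from 48.9% on day 10 of the early season to 102% on day 1 of the middle season.

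The other genes near 0 in CHT025 had lower levels in WFB. LOC_Os10g04674, annotated as RPM1, had 2.54, 3.46 and 4.09 FPKM in WFB and 1.60, 1.84 and 2.10 FPKM in the hybrid, a share of 54.2% with no overlap. LOC_Os12g28250, also annotated as RPM1, was listed at 0 in all 9 CHT025 libraries and had a hybrid share of 51.8%. In the CC-NBS-LRR gene LOC_Os08g43000 the share was 32.5%. In LOC_Os11g45060, an NB-ARC gene, it was 31.9% over the 9 libraries, but 56.9% on day 10 of the early season and 12.4% on day 10 of the middle season. For this last gene the hybrid libraries, at 0.06 to 0.80 FPKM, overlapped those of both parents.

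Among the 11 genes near 0 in WFB, the NBS-LRR gene LOC_Os04g53000 had the highest level in CHT025. It held 11.2, 13.3 and 12.1 FPKM in CHT025 on day 10 of the early season, 7.14, 7.06 and 7.02 on day 1 of the middle season, and 16.0, 20.6 and 18.5 on day 10 of the middle season. WFB was listed at 0 in 7 of 9 libraries and at 0.06 FPKM in the other 2. The hybrid held 7.52, 7.77 and 7.13 FPKM, then 2.58, 2.24 and 2.87, then 9.76, 9.07 and 9.73 in the same order. It was above WFB in every library and below CHT025 within each combination of day and season. The hybrid share was 52.0% over the 9 libraries, with 61.3% on day 10 of the early season, 36.2% on day 1 of the middle season and 51.9% on day 10 of the middle season.

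LOC_Os11g34880, an NB-ARC gene, was listed at 0 in all 9 of these WFB libraries. CHT025 had 2.98, 4.69 and 6.11 FPKM as the lowest, median and highest library, and WFYT025 0.96, 1.25 and 1.79 FPKM, a share of 29.7% with no overlap. The NBS-LRR genes LOC_Os12g29690 and LOC_Os12g29710, close to each other on chromosome 12, had similarly low hybrid shares of 30.1% and 28.7%. LOC_Os12g28100 followed with 36.1%, and LOC_Os11g42570 with 34.5%, where 1 hybrid library was as low as 0.02 FPKM and the hybrid overlapped WFB. Shares nearer to the middle were found for LOC_Os04g53496 (49.7%), LOC_Os01g71106 (48.3%), LOC_Os01g16370 (47.9%), LOC_Os11g44580 (45.1%) and LOC_Os11g29520 (43.8%).

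**Figure D2:**
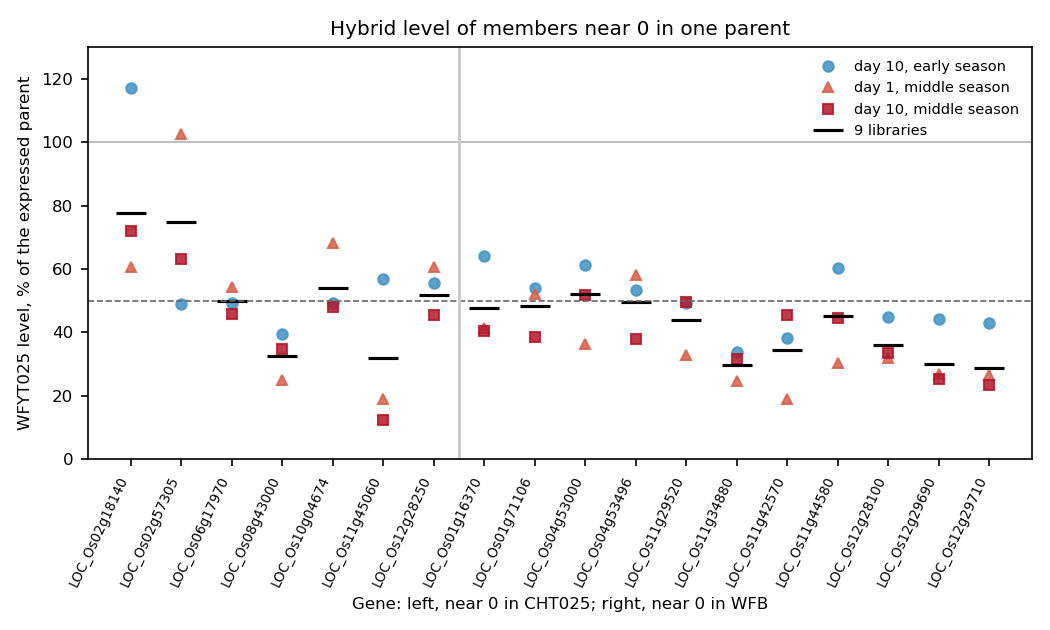
Mean FPKM of WFYT025 as a percent of the mean of the parent that transcribes the gene, for the 18 receptor genes near 0 in one parent, by day and season (symbols, 3 libraries per variety) and over 9 libraries (bars). The dashed line marks 50% and the solid line 100%, and the bars run from 28.7% to 77.6%.

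Over the 18 genes the hybrid share ran from 28.7% to 77.6% with a median of 46.5%. The 7 genes near 0 in CHT025 had a median of 51.8%, and the 11 near 0 in WFB a median of 43.8%. In 16 of the 18, all 9 hybrid libraries were above all 9 of the parent near 0, and in 13 all 9 were below all 9 of the other parent. Of the 438 tested genes that were near 0 in one parent by the same rule, 87.9% and 45.2% did so. The level of the other parent chose these genes, and 5 of the 18 had no hybrid library at 1 FPKM and thus passed the filter only through that parent. A hybrid level below that parent is therefore in part fixed by the choice, and the differences from it are descriptions. When the parents were instead averaged as FPKM (linear scale) and the hybrid set against that average, 2 genes were called higher and 9 lower, where 13% of all tested genes were higher and 47.4% lower. The higher ones were LOC_Os02g18140 (log2 0.47 ± 0.06, SE) and LOC_Os02g57305 (0.30 ± 0.05). The lower ones included LOC_Os11g34880, at -0.47 ± 0.05, and 6 others of the 11 genes near 0 in WFB. That average rests on the same parental values that chose the genes, so these calls are descriptions too.

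Of the 18 genes, 9 met the rule only once the libraries that stood apart were left out, 7 of them near 0 in WFB and 2 near 0 in CHT025. Leaving those libraries out was what brought them in, so their levels there are given as values only. LOC_Os01g71106, for example, held 2.63, 2.44 and 2.36 FPKM in the 3 omitted libraries and at most 0.02 FPKM in the other 9 of WFB, while CHT025 held 3.65 to 5.16 FPKM. LOC_Os04g53000, which met the rule either way, was listed at 0 in all 3 omitted libraries as in 7 of the other 9. Conversely, LOC_Os11g15670 (near 0 in CHT025) and LOC_Os11g41210 (near 0 in WFB) met the rule only with all libraries. LOC_Os11g15670 was listed at 0 in all 12 CHT025 libraries and at 0.60 to 2.04 FPKM in WFB. Over all libraries the hybrid share was 39.3% for LOC_Os11g15670 and 36.7% for LOC_Os11g41210.

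A further 8 receptor genes were listed at 1 FPKM or more only in those 3 libraries. LOC_Os11g11550, an NBS-LRR gene, held 24.9, 24.9 and 24.4 FPKM there and at most 0.03 FPKM in the other 33 libraries of the series. LOC_Os12g12130, a receptor-like gene of the verticillium wilt type, held 8.21, 7.94 and 7.13 FPKM, and LOC_Os11g11580, an NB-ARC gene, 6.98, 6.87 and 6.23 FPKM, each with at most 0.02 FPKM elsewhere. The SD among the 3 libraries was at most 0.562 FPKM for any of the 8 genes. The other 5 were LOC_Os11g11810, LOC_Os11g12000, LOC_Os02g18070, LOC_Os05g15040 and LOC_Os12g12120, with means of 1.29 to 1.91 FPKM. No CHT025 or hybrid library held more than 0.03 FPKM of any of the 8. They were found by their values, and no test is given for their parental difference.

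Between the parents, averaged over the 4 combinations of day and season, limma called 72 of the 151 genes higher in CHT025 and 53 lower. The background was 48.9% of all tested genes higher and 26.4% lower. In either direction 82.8% of the receptor genes and 75.2% of all tested genes were called. At least 2-fold on the log2(FPKM + 1) scale, 21 were higher and 15 lower, which is 23.8% of the receptor genes against 6.72% of all tested genes. The median size of the log2 difference was 0.35 for the receptor genes and 0.21 for all tested genes. After quantile normalization the split was 59 higher and 69 lower, so which direction had more calls changed with the scaling. Without the WFB libraries of day 1 of the early season, and averaged over the other 3 combinations, 77 were higher and 47 lower (82.1% called, against 76.4% of all tested genes), and 25.2% against 8.79% differed at least 2-fold.

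**Figure D3:**
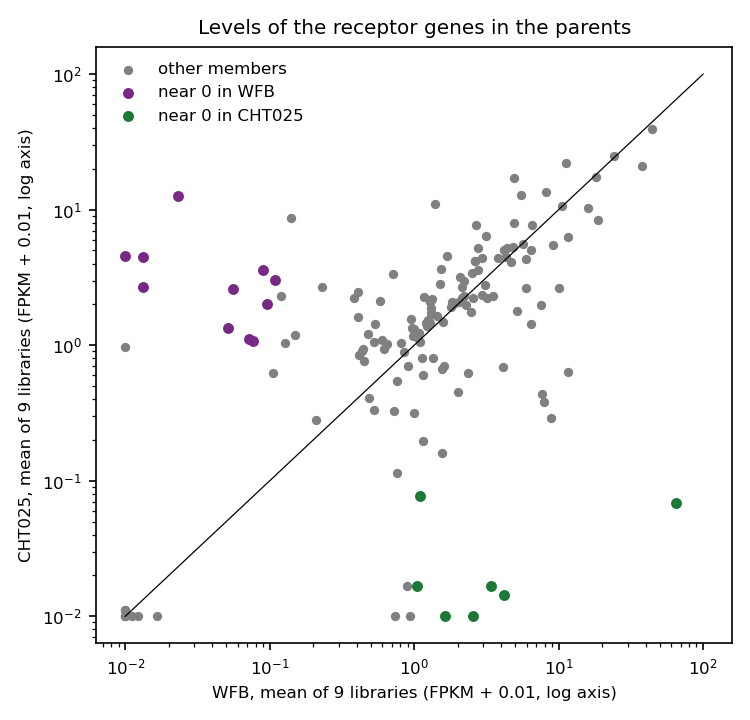
Mean FPKM + 0.01 of the 151 receptor genes in WFB (x axis) and CHT025 (y axis), both on log axes, over the 9 libraries per parent without day 1 of the early season. The line marks equal levels, and the coloured points are the 11 genes near 0 in WFB and the 7 genes near 0 in CHT025.

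In all 4 combinations of day and season, 26 receptor genes were higher in CHT025 and 21 lower, which is 31.1% of the 151, against 8.23% and 4.6% of all tested genes. In 37, or 24.5%, the parents were called in opposite directions in different combinations, against 38.2% of all tested genes. Without the WFB libraries of day 1 of the early season, 45 were higher and 25 lower in all of the other 3 combinations, or 46.4% against 24.1% of all tested genes. Opposite calls among those 3 combinations were found for 19, or 12.6%, against 20.9% of all tested genes. Among genes outside the near 0 sets and higher in CHT025, LOC_Os08g07774, annotated as RPM1, had the largest difference. Its lowest, median and highest library held 0, 0.04 and 0.40 FPKM in WFB, 3.96, 8.54 and 14 FPKM in CHT025, and 0.65, 2.61 and 5.11 FPKM in WFYT025. The parents did not overlap, at log2 3.04 ± 0.04 (SE). No WFB library reached 1 FPKM, so this gene passed the filter only through the other varieties. Its parental difference is a description. The hybrid was above every WFB library, and overlapped CHT025 only across days.

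The NB-ARC gene LOC_Os11g38000 ranked 9 by mean level. It held 3, 5.77 and 6.62 FPKM in WFB, 15.3, 16.9 and 18.9 FPKM in CHT025, and 9.43, 10.5 and 11.9 FPKM in the hybrid, as the lowest, median and highest of 12 libraries each. The 3 varieties were fully separate. The parental difference was log2 1.56 ± 0.03 (SE, adjusted p = 3.17e-28 by limma), and the hybrid differed by 0.92 ± 0.03 from WFB and by -0.63 ± 0.03 from CHT025 (adjusted p = 7.38e-22 and 1.45e-17). LOC_Os11g44990, also NB-ARC, was higher in CHT025 by log2 1.90 ± 0.04 (adjusted p = 1.09e-26 by limma). LOC_Os11g34880, LOC_Os01g71106, LOC_Os11g29520, LOC_Os12g29690 and LOC_Os12g29710, described above, were higher by 2.04, 1.94, 1.73, 1.47 and 1.38.

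Among genes higher in WFB, LOC_Os12g10710, an NB-ARC gene, held 6.56, 9.42 and 17.7 FPKM in WFB as the lowest, median and highest library, 0.19, 0.30 and 1.70 FPKM in CHT025, and 2.12, 5.84 and 6.35 FPKM in WFYT025. All 12 hybrid libraries lay between both parents with no overlap. The parental difference was log2 -2.90 ± 0.05 (SE, adjusted p = 3.91e-30 by limma). LOC_Os04g53120, another NB-ARC gene, held 4.45 to 14.8 FPKM in WFB, 0.18 to 1.31 FPKM in CHT025 and 2.19 to 10.5 FPKM in the hybrid, with a parental difference of -2.75 ± 0.04 (adjusted p = 1.6e-32 by limma). The hybrid was above every CHT025 library and overlapped WFB only between different combinations of day and season.

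A run of neighbouring loci on chromosome 6 held 4 of the genes that were lower in CHT025 in all 4 combinations, one of them LOC_Os06g17970 above. For LOC_Os06g17880, LOC_Os06g17900 and LOC_Os06g17920 the log2 differences were -1.02 ± 0.04, -1.41 ± 0.04 and -1.42 ± 0.04 (SE). The adjusted p by limma was 1.42e-22 for LOC_Os06g17900. No CHT025 library reached 1 FPKM of LOC_Os06g17880 or LOC_Os06g17920, so their differences are descriptions. LOC_Os06g17950 of the same run went the other way, with 0.34 to 1.92 FPKM in WFB, 1.71 to 3.80 FPKM in CHT025 and 1.17 to 2.04 FPKM in the hybrid. It is named here after its values were seen. The other genes named as higher in WFB were LOC_Os01g70080, LOC_Os11g45790 and LOC_Os11g45090, with log2 differences of -1.26, -0.99 and -0.98.

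Whether the parental difference varied with day and season was tested with limma's moderated F test, which called 136 of 151 receptor genes, or 90.1%, near the 87.3% of all tested genes. Without day 1 of the early season it called 107 of 151, against 75.5% of all tested genes. The genes with the smallest adjusted p included 4 of the 8 found only in the WFB libraries that stood apart, LOC_Os11g11550, LOC_Os12g12130, LOC_Os11g11580 and LOC_Os11g11810. Those libraries alone brought all 8 past the filter, so for these 8 the F test is not a result. The other 2 genes of smallest adjusted p did not rest on those libraries. LOC_Os02g38392, an NBS-LRR gene, held 18.9, 19.9 and 18.6 FPKM in WFB on day 1 of the middle season, and 0.35, 0.47 and 0.57 FPKM in CHT025. In the other WFB groups its highest library held 3.15 FPKM, and the hybrid held 0.48, 0.32 and 0.57 FPKM on that day. LOC_Os09g34150, also NBS-LRR, held 19.1, 21.6 and 17.4 FPKM in the same WFB group, 0.53, 0.44 and 0.71 FPKM in CHT025 and 0.33, 0.47 and 0.60 FPKM in the hybrid. WFB was far above both other varieties there. No CHT025 library of any group reached 1 FPKM of LOC_Os02g38392. The parental difference on that day was log2 -3.78 ± 0.08 for LOC_Os02g38392 and -3.70 ± 0.09 for LOC_Os09g34150 (SE, adjusted p = 3.62e-26 and 7.75e-25 by limma), and on day 1 of the early season 0.05 ± 0.08 and 0.11 ± 0.09 (adjusted p = 0.645 and 0.3).

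Averaged over the 4 combinations, limma called 46 receptor genes higher and 70 lower in WFYT025 than in WFB, against 28.4% and 35% of all tested genes. Against CHT025 it called 32 higher and 80 lower, with 16.5% and 52.9% as the background. Against the mid-parent, which is the average of the parents' log2 values, 28 were higher and 70 lower, with 16.5% and 42.5% as the background, and the median log2 difference was -0.07 for the receptor genes and -0.06 for all tested genes. These comparisons share the hybrid libraries. After quantile normalization, which moved the median of all genes against CHT025 from -0.11 to -0.01, the splits were 45 higher and 59 lower against CHT025 and 37 and 44 against the mid-parent. With the parents averaged on the linear scale, 13 were higher and 93 lower than the mid-parent, with 12.1% and 49.5% as the background. Without the WFB libraries of day 1 of the early season the log2 mid-parent split was 37 higher and 46 lower (55% called, against 57.8% of all tested genes). Against WFB it was then 49 higher and 53 lower (67.5% against 62.9%), and against CHT025 37 and 77 (75.5% against 71.7%).

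No receptor gene was below the mid-parent in all 4 combinations, and 3 were above it, against 0.603% and 1.29% of all tested genes. In the 3 combinations other than day 1 of the early season, 5 were above and 1 below throughout, or 3.97% against 4.41% of all tested genes. The 3 genes above in all 4 were LOC_Os06g17970, LOC_Os02g18140 and LOC_Os10g04674, at log2 2.14 ± 0.03, 0.86 ± 0.05 and 0.50 ± 0.03 (SE, adjusted p = 2.87e-32, 5.71e-16 and 1.21e-14 by limma). All 3 are near 0 in CHT025, where a mean of log values lies far below the linear mean. On the linear scale with all libraries, LOC_Os06g17970 was still called above, at 0.31 ± 0.03, and so was LOC_Os10g04674, at 0.19 ± 0.03 (SE). On the linear scale and without day 1 of the early season, they differed by -0.01 ± 0.03 and 0.08 ± 0.04 (SE). Neither was then called, while LOC_Os02g18140 remained above at 0.47.

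Outside both parents, the hybrid was called above in 3 receptor genes and below in 14 on day 1 of the early season, with 4.07% and 8.16% of all tested genes as the background. On day 10 of the early season 14 were above and 0 below (6.52% and 3.47%). On day 1 of the middle season 2 were above and 23 below (5.7% and 23.6%), and on day 10 of the middle season 16 were above and 26 below (10.8% and 15.8%). No receptor gene was above both parents in all 4 combinations and none was below both, against 0.0323% and 0.0269% of all tested genes.

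One gene stood far outside the parents on a single day. LOC_Os04g43440, annotated as an NB-ARC/LRR disease resistance protein, held 109, 105 and 114 FPKM in the middle season hybrid on day 10. WFB held 2.81, 2.02 and 1.62 FPKM and CHT025 4.12, 4.98 and 4.28 FPKM in the same combination, so the hybrid was separate from both. The log2 difference was 5.15 ± 0.28 from WFB and 4.34 ± 0.28 from CHT025 (SE, adjusted p = 4.72e-16 and 3.65e-14 by limma). In the other 3 combinations the hybrid held 0.34 to 1.65 FPKM. In WFB on day 1 of the middle season the 3 libraries differed widely, at 11.2, 15.3 and 2.52 FPKM, and CHT025 held 11.98, 11.6 and 11.5 FPKM on day 1 of the early season. Its mean of 109 FPKM is part of the summed receptor level of 672 FPKM given above for that hybrid group.

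Between day 1 and day 10, most calls in the middle season were increases, for the receptor genes and for all tested genes. In WFB 83 receptor genes rose and 22 fell (46% and 20.6% of all tested genes), in CHT025 53 rose and 9 fell (23.1% and 20.5%), and in WFYT025 71 rose and 13 fell (47.7% and 16.6%). In the early season 31 rose and 76 fell in WFB (25% and 46.1%). For CHT025 the numbers were 44 and 38 (25.1% and 39.9%), and for WFYT025 59 and 18 (33% and 35%). The early season count for WFB rests on the day 1 libraries that stood apart. There is no other day 1 group of that variety and season to set in their place. The 76 that fell include the 8 genes that passed the filter only through those libraries. For these 8 the fall was fixed by the filter and is not a result.

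**Figure D4:**
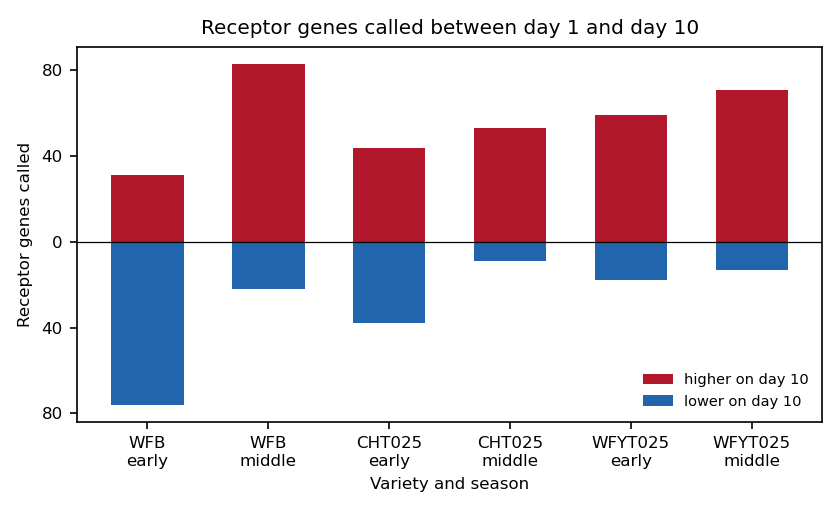
Number of the 151 receptor genes called higher (upward) or lower (downward) on day 10 than on day 1 by limma, for each variety and season. Increases outnumber decreases in the 3 middle season bars, where 53 to 83 genes rose and 9 to 22 fell. They did so among all tested genes too. In WFB of the early season 76 fell and 31 rose. The 76 include the 8 genes that passed the filter only through the day 1 libraries of that group.

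The splits depend in part on scaling. Quantile normalization moved the median change of all genes for the early season from -0.15 to -0.01 (WFB) and from -0.09 to 0.02 (CHT025), and for the middle season from 0.16 to 0.03 (WFB) and from 0.18 to -0.07 (WFYT025). The receptor genes then split into 48 that rose and 58 that fell in the early season WFB leaves, 54 and 26 in those of CHT025, and 50 and 37 in the middle season hybrid. Opposite calls in different varieties or seasons were found for 86 of the 151 genes, or 57%, against 65.3% of all tested genes.

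Of the 151 genes, 10 rose in at least 5 of the 6 comparisons and 1 fell in at least 5, against 5.77% and 2.51% of all tested genes. LOC_Os07g02620, an NB-ARC gene, rose in all 6. It went from 2.54, 2.53 and 2.87 FPKM on day 1 to 6.09, 6.60 and 6.03 FPKM on day 10 in WFYT025 of the middle season, and from 1.21, 1.62 and 1.2 to 6.97, 7.2 and 7.2 FPKM in WFB of that season. The days did not overlap within any variety and season. Its log2 change ran from 0.55 ± 0.09 in WFB of the early season (SE, adjusted p = 6.59e-06 by limma) to 1.80 ± 0.09 in WFB of the middle season (adjusted p = 2.17e-16). LOC_Os07g02570, a nearby NB-ARC gene, rose in 5 comparisons by log2 0.30 to 2.31. In WFYT025 of the middle season it changed by 0.04 ± 0.06 (adjusted p = 0.572 by limma), and by -0.28 after quantile normalization.

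LOC_Os08g07774, the RPM1 type gene that was low in WFB, rose in 5 comparisons, with 0.65, 0.70 and 0.73 FPKM on day 1 and 5.11, 4.93 and 4.47 FPKM on day 10 in the early season hybrid (log2 1.78 ± 0.07, SE, adjusted p = 3.26e-19 by limma). LOC_Os02g18080, an NB-ARC gene, rose most in WFYT025 of the middle season, from 0.140 ± 0.072 to 5.16 ± 0.46 FPKM (SD, n = 3; log2 2.43 ± 0.09, adjusted p = 7.26e-20 by limma), and did not pass the test in CHT025 of the early season (0.01 ± 0.09). LOC_Os01g08370, described as symbiosis-related, rose in 5 comparisons, the largest being CHT025 of the middle season, from 1.72 ± 0.62 to 5.70 ± 0.37 FPKM. In the opposite direction, LOC_Os01g52270, an NB-ARC gene, fell in all 6 comparisons, by log2 0.32 to 0.69 in size. In WFYT025 of the middle season, where it went from 3.08, 3.84 and 2.76 FPKM to 2.45, 2.06 and 2.62 FPKM, the adjusted p was 0.0417 by limma. That call was lost with a pseudocount of 0.1 FPKM, with no filter on low values, and when replicate 1 or 2 of either day was left out.

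**Figure D5:**
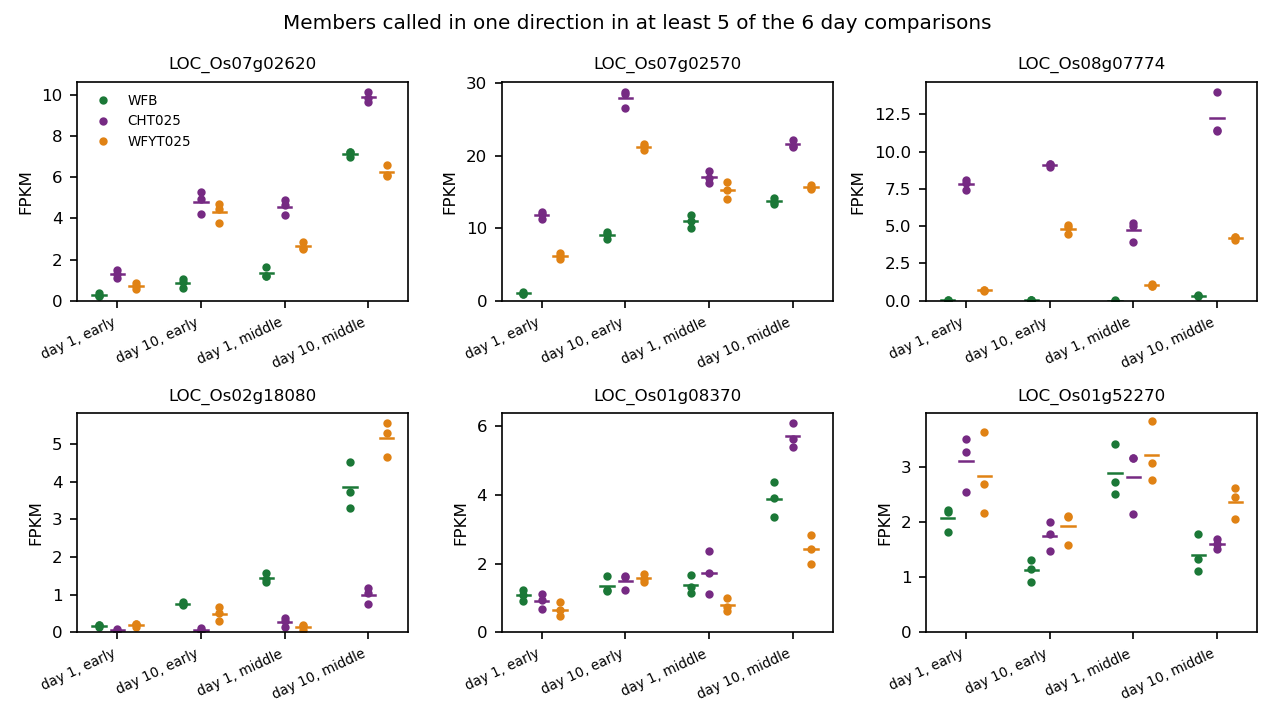
FPKM by variety, day and season of the 6 genes named for changes between day 1 and day 10, with 1 point per library and a line at the mean of 3 libraries. LOC_Os07g02620 rises and LOC_Os01g52270 falls in all 6 pairs of days, while LOC_Os08g07774 is at 0 to 0.40 FPKM in every WFB library.

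Between seasons, averaged over both days, 73 receptor genes were higher and 44 lower in the middle season in WFB (42.5% and 34.7% of all tested genes), 84 and 22 in CHT025 (49% and 26.3%), and 53 and 44 in WFYT025 (36.4% and 39.4%). After quantile normalization, which moved the median of all genes in CHT025 from 0.13 to -0.01, the CHT025 split was 60 and 37. The 44 in WFB include the 8 genes that passed the filter only through the libraries that stood apart. For WFB on day 10 alone, which leaves out those libraries, 92 were higher and 14 lower (47.5% and 20.1%). In all 3 varieties 34 were higher and 11 lower, against 24.5% and 16.7% of all tested genes. With day 10 alone for WFB, 34 were higher and 5 lower in all 3, against 21.4% and 9.13%.

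Of the genes called higher in the middle season in all 3 varieties, the neighbouring genes LOC_Os11g10770 (annotated RGA3) and LOC_Os11g10760 (NBS-LRR) had the largest mean increases. In WFB on day 1 of the middle season LOC_Os11g10770 held 30.9, 32.5 and 27.2 FPKM and LOC_Os11g10760 50.9, 45.4 and 43.9 FPKM. On day 10 of the same season WFB held 3.33, 3.1 and 3.4 FPKM of the first and 6.26, 5.53 and 5.07 FPKM of the second. Both were thus high in a single WFB group, the one in which LOC_Os02g38392 and LOC_Os09g34150 were high too. LOC_Os12g39620, a disease resistance protein gene among the most abundant, also peaked there, with 72.6, 86.2 and 67.4 FPKM against 9.61 to 34.7 FPKM in the other 33 libraries. The season difference was log2 2.24 ± 0.08 for LOC_Os11g10770 in WFB, 0.62 ± 0.08 in CHT025 and 0.77 ± 0.08 in WFYT025 (SE, adjusted p = 1.06e-20, 8.55e-08 and 1.37e-09 by limma). LOC_Os07g02620, LOC_Os02g18080 and LOC_Os01g07280 were the other genes named for increases, by log2 0.27 to 1.73 over the 3 varieties. On day 10 alone the WFB difference was 1.02 for LOC_Os11g10770 and 0.49 for LOC_Os11g10760, below the 2.69 of LOC_Os01g07280 and the 2.13 of LOC_Os07g02620.

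Lower in the middle season was LOC_Os11g16510, annotated as RPM1. The lowest, median and highest of 6 libraries per season were 10.9, 13.9 and 18.4 FPKM in the early and 1.84, 3.10 and 5.37 FPKM in the middle season in WFB. The same values were 7.03, 9.27 and 14.2 FPKM and then 1.44, 2.65 and 4.14 FPKM in CHT025, and 8.93, 12.5 and 14.6 FPKM and then 1.31, 1.96 and 2.44 FPKM in WFYT025. The seasons did not overlap in any variety. The log2 difference was -1.87 ± 0.08, -1.56 ± 0.08 and -2.13 ± 0.08 (SE, adjusted p = 1.01e-18, 1.89e-16 and 4.35e-20 by limma). On day 10 alone the WFB difference was -1.12 ± 0.12 (adjusted p = 8.48e-09 by limma).

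The other 4 genes named as lower in the middle season were called lower in all 3 varieties with all libraries, and their WFB values depended on the libraries that stood apart. LOC_Os11g44990 differed by log2 -1.60 in CHT025 and -1.86 in WFYT025. In WFB it differed by -1.53 with those libraries and by 0.31 on day 10 alone (adjusted p = 0.0016 by limma), a call in the opposite direction. LOC_Os01g06790 turned in the same way in WFB, from -0.59 to 0.28 (adjusted p = 0.0159 by limma), while CHT025 and WFYT025 differed by -0.62 and -1.22. LOC_Os06g47800 (RGA3) was -1.72 in WFB with those libraries and -0.14 on day 10 alone, where the call was lost (adjusted p = 0.177 by limma), against -1.01 in CHT025 and -1.12 in WFYT025. LOC_Os11g30210 (NBS-LRR type) was lower in WFB either way, at -1.91 and -0.97, and by -0.52 in CHT025 and -1.20 in WFYT025.

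Genes that may work with such receptors were taken from a list of roles matched in the descriptions, of which 33 passed the filter. SGT1 and RAR1 are co-chaperones that keep NB-ARC receptors folded and ready, NDR1 of Arabidopsis is a membrane protein needed by some of them, and respiratory burst oxidases make reactive oxygen after recognition. Between the parents 16 of the 33 were higher in CHT025 and 10 lower, with 48.9% and 26.4% of all tested genes as the background. The hybrid was above the mid-parent in 6 and below it in 13, with 16.5% and 42.5% as the background. The shares called in either direction, 78.8% and 57.6%, were near the 75.2% and 59% of all tested genes. The first of 2 SGT1 genes, LOC_Os01g43540, was abundant, at 49.4, 83.8 and 149 FPKM as the lowest, median and highest of the 36 libraries. It was higher in the middle season in all 3 varieties, by log2 1.25 ± 0.03 in WFB, 0.84 ± 0.03 in CHT025 and 0.56 ± 0.03 in WFYT025 (SE, adjusted p = 3.77e-25, 1.82e-20 and 2.19e-16 by limma). The second, LOC_Os08g34740, held 3.94 to 10.8 FPKM, and its seasonal values were -0.28, 0.02 and -0.55 in the same order. The WFB value includes the libraries that stood apart and was not recomputed without them. Between day 1 and day 10 this gene changed in WFB by -0.82 ± 0.08 in the early and 0.33 ± 0.08 in the middle season (SE). Its seasonal value in WFB thus differed between the days.

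RAR1 (LOC_Os02g33180), at 8.26 to 15.2 FPKM, differed by log2 0.05 ± 0.05 between the parents (adjusted p = 0.358 by limma) and by -0.04 ± 0.04 between hybrid and mid-parent (adjusted p = 0.368). Under the NDR1 role, 25 genes described as harpin-induced passed the filter. None of their descriptions named NDR1 itself, so a role with receptors is not shown for them. Of these 25, 10 were higher and 9 lower in CHT025, with 48.9% and 26.4% of all tested genes as the background. Among them LOC_Os04g58850, named after its values were seen, rose in WFYT025 between day 1 and day 10 by log2 3.71 ± 0.07 in the early and 3.15 ± 0.07 in the middle season (SE, adjusted p = 2.17e-27 and 9.62e-26 by limma). Of 5 respiratory burst oxidase genes, 4 were higher and 1 lower in CHT025, against the same background. LOC_Os01g61880 of these, also named after its values were seen, was 0.47 ± 0.02 above the mid-parent (adjusted p = 9.02e-20 by limma). No description in the list matched EDS1, PAD4, RIN4 or NPR1, and the only HSP90 match did not pass the filter.

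The filter divided genes of nearly the same level. Just inside it were LOC_Os05g31530, LOC_Os10g03100 and LOC_Os04g30930, whose value at the rank the filter reads (library 3 from the top) was 1.04, 1.05 and 1.1 FPKM. Just outside were LOC_Os11g45160, LOC_Os11g39320 and LOC_Os07g40810, with 0.99, 0.93 and 0.88 FPKM.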

How the data were processed

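RNA-seq of rice leaves was used as 6 deposited tables of FPKM values, with 2 decimals, for 36 libraries in 12 groups of 3. Per the submitters' processing notes, the authors used HISAT, StringTie and edgeR. Tool versions, genome build and the treatment of reads matching several genes were not given in the sources used here, so read depth is unknown and no count test was run. The tables share 34623 genes. The hybrid's early season table repeated 7534 lines, held 1 broken line, and listed 7381 further genes, each at 0, which were left out.

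The 18585 genes that reached 1 FPKM in 3 or more libraries were tested as log2(FPKM + 1) with limma 3.58.1 in R 4.3.3. One mean per group was fitted over all 36 libraries with a variance trend (24 residual degrees of freedom), p-values were two-sided and adjusted by Benjamini-Hochberg over all tested genes, and calls were made at 0.05. The scripts were tested on simulated data. Tables and figures used Python 3.11.15, pandas 2.3.3, numpy 2.4.6 and matplotlib 3.10.9.

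The receptor genes, the list of partner genes and the tests were chosen with earlier results of these data known. Genes were named by rank: highest mean level, near 0 in one parent, largest difference among those called in one direction throughout (parents, mid-parent, days, seasons), smallest p of the F test, and nearest to the filter. The alternatives were a pseudocount of 0.1 FPKM, no filter, quantile normalization, the replicate number as a block, only the compared varieties, other limits for near 0, a linear mid-parent, and each library left out.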

Additional observations from a re-analysis of the deposited data

Results flagged for a closer look

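The parental difference varied between the 4 combinations of day and season by limma's F test in 136 of the 151 receptor genes, at a background of 87.3% of all tested genes. The smallest adjusted p-values by limma were 2.92e-32 for LOC_Os11g11550, 2.64e-27 for LOC_Os12g12130, 4.82e-27 for LOC_Os11g11580 and 3.02e-20 for LOC_Os11g11810. These 4 were listed at 1 FPKM or more only in the WFB libraries of day 1 of the early season, and without that group their adjusted p was 0.794, 0.976, 0.995 and 1. LOC_Os02g38392 and LOC_Os09g34150 had adjusted p-values of 1.03e-21 and 8.42e-21 by limma. Both were high in WFB on day 1 of the middle season, and without the early season group the values were 2.62e-17 and 6.93e-17. Groups of 3 libraries are too small for the search for single outlying samples, so none was made.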

How the results depend on the processing

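Of 588 counts of receptor genes recomputed under the alternatives, 575 stayed within 1.5 times the reported count and 13 did not. Quantile normalization gave 44 genes below the mid-parent, 48 that rose in WFB of the early season, 37 that fell in the middle season hybrid, 37 lower in the middle season in CHT025, and 1 near 0 in WFB. The linear mid-parent left 13 genes higher. The number near 0 in WFB was 1 with a limit of 0.05 FPKM, 12 with 0.3 FPKM, and 2 when the other parent had to reach 2 FPKM. Without the WFB libraries of day 1 of the early season, an alternative chosen after seeing the data, 46 genes were below the mid-parent, 14 were lower in the middle season in WFB and 11 were near 0 in WFB. With single libraries left out, the number that fell in CHT025 of the middle season ran from 5 to 10, and 5 was reached without replicate 2 of day 1. The cause of these shifts was not tested.

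Among 1990 recomputed values of named genes, each for a comparison the text gives it for, 1969 kept their direction and their side of the threshold, 15 lost their call, 1 gained it and 5 changed sign. Without the WFB libraries of day 1 of the early season, the sign changed for LOC_Os11g11580 (0.0016) and LOC_Os11g12350 (-0.17) between the parents, and for LOC_Os11g44990 (0.31) and LOC_Os01g06790 (0.28) between seasons in WFB. After quantile normalization it changed for LOC_Os07g02570 between days in the middle season hybrid (-0.28). Replicate numbers did not pair the libraries: deviations of same-numbered libraries correlated at a median of -0.0119, and 7 of 36 libraries had their best partner under their own number. With the replicate number as a block, 73 genes were higher and 54 lower in CHT025, and no count left the range of 1.5 times. Fold changes of genes near 0 rest on 2-decimal values at unknown depth.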
